A study of Mus musculus with 10 samples.

Results

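Mitochondrial complex I oxidises NADH in the respiratory chain, and NDI1 is a yeast NADH dehydrogenase that can take over this reaction in mammalian cells. The genes described here are 8 clock output factors in the jejunum of mice with and without NDI1 in the intestinal epithelium: Dbp, Tef, Hlf, Nfil3, Bhlhe40, Bhlhe41, Ciart and Rora. They were found by gene symbol, each as 1 row of the 45707 rows of a table of normalized counts. The list was selected on these same normalized counts, whose differences between genotypes and mice were known when it was drawn up, so the differences given for the members describe them and test nothing. Of the 8 genes, 7 reached 10 normalized counts in 5 or more mice and entered the genotype comparison, and Bhlhe41 did not.

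The table held 10 libraries of whole jejunum, 1 from each of 10 mice. Of these, 5 were Vil-Cre controls and 5 were Vil-Cre:NDI1 mice, which carried 1 copy of an NDI1 transgene behind a lox-stop-lox cassette at ROSA26. Both groups carried Vil-Cre, which places the recombinase under the Villin promoter and so in the intestinal epithelium, and the muscle, immune, vascular and nerve cells of the jejunum are outside its reach. The mice were male littermates of 8 to 12 weeks, fasted for 16 to 18 h and given water by gavage, and the jejunum was taken 1 h later. They were housed in a cycle of 12 h of light and 12 h of dark, and the sources used here do not give the clock time at which each mouse was killed. Collection time within or between the groups therefore cannot be set beside the values of these rhythmic genes.

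In the check of the transgene, NDI1 had 0, 0, 1, 0 and 0 reads in the controls and normalized counts of 982, 1371, 2575, 1394 and 1511 in the Vil-Cre:NDI1 mice. It was the 1 gene of 14301 past the threshold (limma, log2 fold change 10.34, Benjamini-Hochberg adjusted p = 7.14e-09), so that 0.00699% of the tested genes were called. With controls near 0, the size of this fold change depends on the pseudocount of 1. The libraries held 10145705 to 12371530 reads on genes. Enterocyte markers, which include the brush border and fat-absorbing genes of the small intestine, were abundant in every library, with summed normalized counts of 206661 to 400204 in the controls and 304704 to 420431 in the Vil-Cre:NDI1 mice. The lowest sum was that of Vil-Cre 5. In bulk tissue, fewer cells of a type and less RNA per cell cannot be told apart, which holds for all values below.

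The molecular clock is a loop in which CLOCK or NPAS2 pairs with ARNTL (BMAL1) and binds E-boxes, and the PER and CRY proteins that are made in response block this pair. Output factors carry the rhythm to other genes. DBP, TEF and HLF are the PAR bZIP activators, which bind D-boxes, and NFIL3 is a bZIP repressor of the same sites whose rhythm runs roughly opposite to theirs. Dbp, Ciart, Bhlhe40 and Bhlhe41 are E-box genes of the loop, the last 3 of which encode repressors, and RORA activates genes through the elements that the REV-ERB repressors NR1D1 and NR1D2 also bind. In the gut, PAR bZIP factors are known for driving transporters and detoxification genes, and NFIL3 for its part in epithelial lipid uptake.

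Set against each other per kilobase of exon, the genes differed widely in level. Over the 10 mice, Bhlhe40 had the highest level, with a mean of 182 normalized counts per kilobase, and was followed by Tef at 121, Dbp at 104 and Nfil3 at 60.8. Hlf stood at 24.7, Ciart at 17.0, Rora at 4.24 and Bhlhe41 at 2.05 on the same scale. The order was not the same in both genotypes. In the controls Bhlhe40 was followed by Tef (84.2 ± 23.7 normalized counts per kilobase, SD, n = 5), Nfil3 (78.1 ± 21.3) and Dbp (39.4 ± 25.7), and Tef and Nfil3 lay within each other's SD. In the Vil-Cre:NDI1 mice Dbp (169 ± 84.1) and Tef (157 ± 21.2) followed Bhlhe40 (179.6 ± 32.7), these 3 lay within the SD of Dbp, and Nfil3 (43.5 ± 19.2) came after them.

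**Figure D1:**
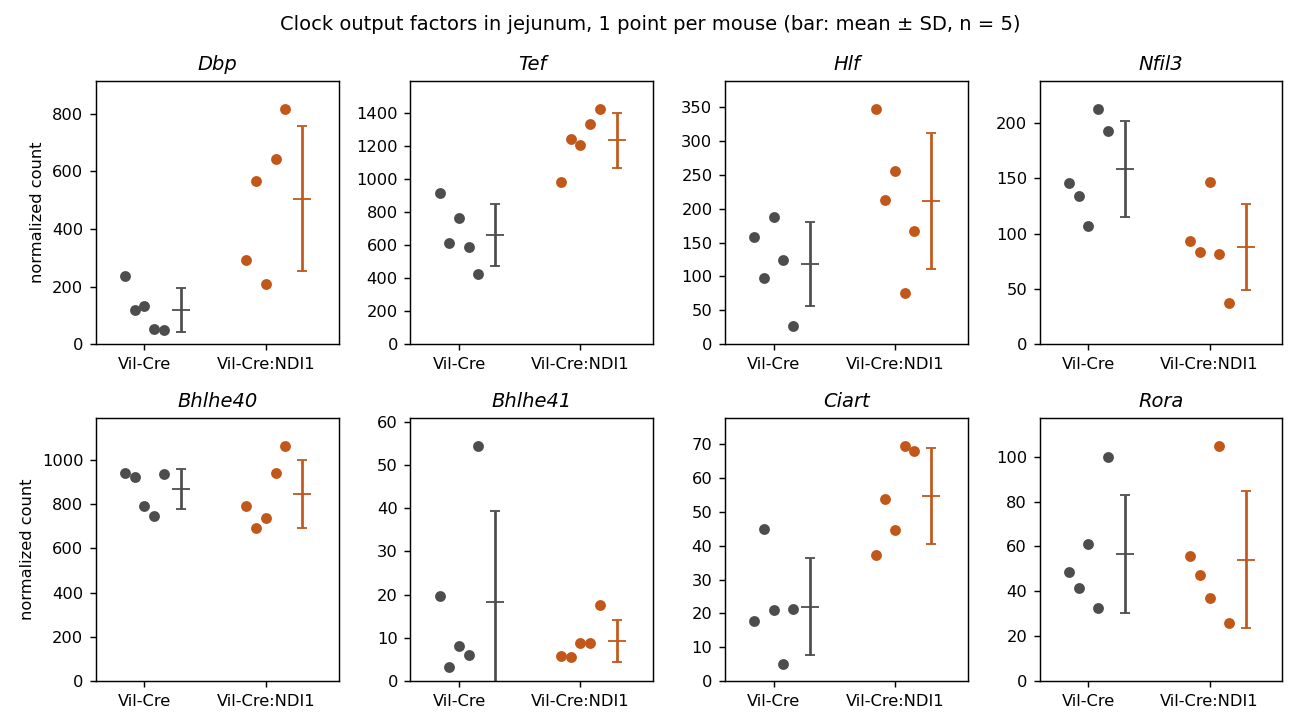
Normalized count of each of the 8 clock output genes in every mouse (linear y axis, own scale per gene), with points for the 5 Vil-Cre and 5 Vil-Cre:NDI1 mice and the mean ± SD of each group, the lower bar of Bhlhe41 in Vil-Cre being cut at 0. The groups of Tef stand apart, those of Dbp, Nfil3 and Ciart overlap in part, and those of Hlf, Bhlhe40, Bhlhe41 and Rora overlap widely.

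Among the activators, Dbp (ENSMUSG00000059824, chr7:45705088-45710203, plus strand, GRCm38) spanned the widest range. Its normalized counts in Vil-Cre 1 to 5 were 237, 118, 134, 51.6 and 48.6, and in Vil-Cre:NDI1 1 to 5 they were 291, 567, 208, 644 and 816. The groups overlapped through 1 pair, since Vil-Cre:NDI1 3 lay below Vil-Cre 1, and every other Vil-Cre:NDI1 mouse was above every control. The means were 118 ± 77.0 and 505 ± 252 (SD, n = 5 each), and the log2 fold change of Vil-Cre:NDI1 against Vil-Cre was 2.17 with an SE of 0.48 and a 95% interval of 1.11 to 3.22. From the lowest to the highest of the 10 mice Dbp differed 16.8-fold. Dbp overlaps the protein-coding gene Sphk2 on the other strand, and strand-specific counting is not given in the sources used here. Sphk2 had 1263 ± 251 normalized counts in the controls and 1396 ± 185 in the Vil-Cre:NDI1 mice, a log2 fold change of 0.16, and its r with Dbp over the 10 mice was 0.28.

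Tef (ENSMUSG00000022389, chr15:81802421-81826863, plus strand) had the highest level per kilobase of the PAR bZIP genes in the controls. Its normalized counts were 918, 613, 765, 587 and 428 in Vil-Cre 1 to 5 and 980.2, 1242, 1206, 1333 and 1424 in Vil-Cre:NDI1 1 to 5. All 5 Vil-Cre:NDI1 mice were above all 5 controls, and Tef was the only one of the 7 tested members whose groups did not overlap. Of all tested genes 0.699% had groups that did not overlap, 0.406% with the Vil-Cre:NDI1 mice higher. The means were 662 ± 186 and 1237 ± 167 (SD, n = 5 each), and the log2 fold change was 0.94 (SE 0.18, 95% interval 0.54 to 1.34). Tef has a pair of annotated start sites in RefSeq, and the 300 bases around each (250 before the start and 50 from it on, GRCm38.p6, plus strand) are shown because each holds 1 E-box CACGTG, the site of the CLOCK and ARNTL pair, given in capitals. The first base of the E-box stood at -127 from the upstream start and at -138 from the downstream one.
Tef upstream start, chr15:81802423-81802722: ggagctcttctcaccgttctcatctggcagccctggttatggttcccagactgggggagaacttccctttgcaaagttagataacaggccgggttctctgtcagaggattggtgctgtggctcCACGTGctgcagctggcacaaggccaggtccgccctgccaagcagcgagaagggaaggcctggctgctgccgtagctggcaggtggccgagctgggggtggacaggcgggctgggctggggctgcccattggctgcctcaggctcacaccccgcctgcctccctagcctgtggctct
Tef downstream start, chr15:81811164-81811463: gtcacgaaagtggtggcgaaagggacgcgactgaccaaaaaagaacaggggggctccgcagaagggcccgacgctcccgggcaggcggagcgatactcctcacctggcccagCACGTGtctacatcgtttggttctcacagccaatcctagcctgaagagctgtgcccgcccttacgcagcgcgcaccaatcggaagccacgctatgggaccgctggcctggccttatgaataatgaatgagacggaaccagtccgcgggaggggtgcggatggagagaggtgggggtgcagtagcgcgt

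Of 32851 RefSeq windows of this length, 7.15% held at least 1 E-box of these letters. A match describes the letters of the window and was not tested as a binding site.

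Hlf (ENSMUSG00000003949, chr11:90336536-90390895, minus strand) is the third PAR bZIP activator. Its normalized counts were 158, 98.5, 187, 124 and 26.2 in Vil-Cre 1 to 5 and 347, 213, 256, 75.4 and 167 in Vil-Cre:NDI1 1 to 5. The groups overlapped, with Vil-Cre:NDI1 4 below 4 of the 5 controls and Vil-Cre 5 far under all other mice. The means were 119 ± 61.7 and 212 ± 101 (SD, n = 5 each), and the log2 fold change of 0.92 had a 95% interval of -0.23 to 2.07, which holds 0. Leaving out Vil-Cre 5 gave 0.45. Hlf thus had about the log2 fold change of Tef with an SE of 0.53 in place of 0.18.

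Nfil3 (ENSMUSG00000056749, chr13:52967209-52981073, minus strand), the repressor of D-boxes, lay the other way. Its normalized counts were 146, 134, 107, 212 and 192 in Vil-Cre 1 to 5 and 93.1, 82.9, 146, 81.3 and 37.6 in Vil-Cre:NDI1 1 to 5. Vil-Cre:NDI1 3 lay among the controls and the other 4 Vil-Cre:NDI1 mice were below all controls. The means were 158 ± 43.2 and 88.2 ± 38.8 (SD, n = 5 each), and the log2 fold change was -0.92 (SE 0.32, 95% interval -1.61 to -0.22). Without Vil-Cre:NDI1 5, the mouse with the lowest Nfil3, it was -0.64.

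Since DBP, TEF and HLF bind the sites that NFIL3 binds, the activators were also set against the repressor within each mouse, per kilobase of exon. The ratio of Dbp to Nfil3 in this unit was 0.171 in Vil-Cre 5 and 0.164 in Vil-Cre 4, at most 1.102 in the other controls, 0.964 in Vil-Cre:NDI1 3 and 14.7 in Vil-Cre:NDI1 5. The sum of Dbp, Tef and Hlf was 0.786 to 3.22 times Nfil3 in the controls. In the Vil-Cre:NDI1 mice it was 3.62 to 25.8 times Nfil3, with no overlap between the groups. This ratio restates the differences of its genes, which were known when the list was drawn up, and is no further result. The share of other gene ratios without overlap was not computed. The shares of Dbp and Tef in the sum follow from the same values and overlapped between the groups. Dbp was 15.6% to 36.1% of the sum in the controls and 26.6% to 57.0% in the Vil-Cre:NDI1 mice. Tef was 53.1% to 73.0% and 37.8% to 58.7%. These ratios concern mRNA, and the proteins were not measured here.

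**Figure D2:**
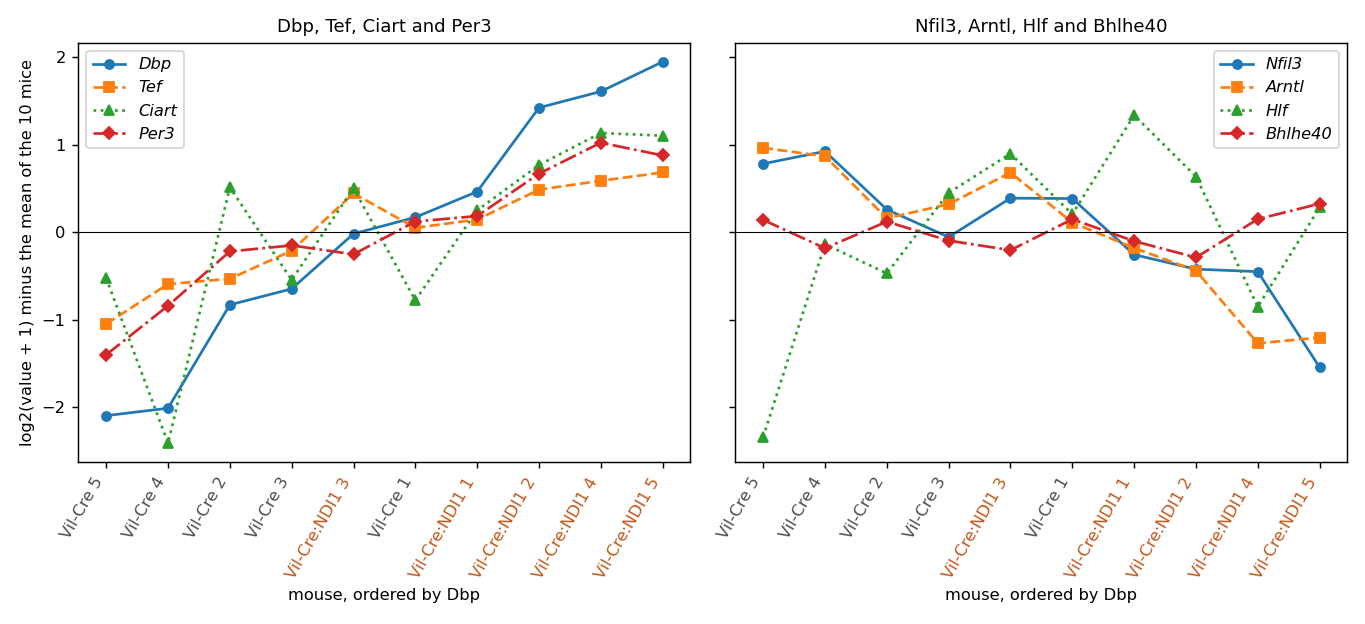
Log2 of the normalized count plus 1, set to the mean of the 10 mice, of Dbp, Tef, Ciart and Per3 (left) and of Nfil3, Arntl, Hlf and Bhlhe40 (right), with the 10 mice placed from the lowest to the highest Dbp. The order by Dbp runs from Vil-Cre 5 to Vil-Cre:NDI1 5, with Vil-Cre:NDI1 3 placed below Vil-Cre 1, and Nfil3 and Arntl run against it.

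Ciart (CHRONO, ENSMUSG00000038550, chr3:95878503-95882251, minus strand) encodes a repressor of the CLOCK and ARNTL pair. Its normalized counts were 17.8, 44.9, 21.04, 5.06 and 21.4 in Vil-Cre 1 to 5 and 37.2, 53.8, 44.5, 69.5 and 68.1 in Vil-Cre:NDI1 1 to 5. Vil-Cre 2 was above Vil-Cre:NDI1 1 and 3, and the other 4 controls were below all Vil-Cre:NDI1 mice. The means were 22.0 ± 14.4 and 54.6 ± 14.2 (SD, n = 5 each), with a log2 fold change of 1.50 (SE 0.45, 95% interval 0.51 to 2.49). These values rest on 5 to 71 reads, and the 5 reads of Vil-Cre 4 have an exact 95% Poisson interval of 1.62 to 11.7 reads, which covers counting error only. Leaving out Vil-Cre 4 gave 1.08. An antisense gene, C920021L13Rik, overlaps Ciart and had 12.6 ± 9.52 normalized counts in the controls and 11.5 ± 3.52 in the Vil-Cre:NDI1 mice, so that part of the reads of these low values could be assigned either way if strand was not used.

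The RefSeq window of Ciart (GRCm38.p6, minus strand, 250 bases before the start and 50 from it on) is shown because it held 3 copies of the E-box CACGTG, in capitals, with first bases at -116, -58 and -44. Of the 32851 windows, 0.0883% held at least 3.
Ciart, chr3:95882179-95882478: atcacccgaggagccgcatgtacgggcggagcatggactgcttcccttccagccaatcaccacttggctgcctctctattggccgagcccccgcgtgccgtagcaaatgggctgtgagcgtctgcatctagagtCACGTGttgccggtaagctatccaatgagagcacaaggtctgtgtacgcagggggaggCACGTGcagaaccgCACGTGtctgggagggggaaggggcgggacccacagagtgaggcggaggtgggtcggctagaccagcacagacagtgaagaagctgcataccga

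Of the other members, Bhlhe41 had 1 E-box in its window, at -153, and the windows of Dbp, Hlf, Nfil3 and Rora had none of these letters. The window of Bhlhe40 was not analysed here. The D-box TTATGTAA, which 0.938% of all windows held, was in no window of the members, and neither was the ROR element (0.384% of all windows). The shorter core of the ROR element, TAGGTCA, which 2.61% of all windows held, was in the window of Nfil3 alone among the members, on the opposite strand from -12 to -6. Both strands were searched for each motif.

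Bhlhe40 and Bhlhe41 encode DEC1 and DEC2, E-box repressors of the same family. Bhlhe40 (ENSMUSG00000030103, chr6:108660629-108666925, plus strand) had 940.1, 923, 793, 747 and 935 normalized counts in Vil-Cre 1 to 5 and 790.1, 694, 736, 941 and 1063 in Vil-Cre:NDI1 1 to 5. The Vil-Cre:NDI1 mice spread to both sides of the controls, with 2 above all controls and 2 below all of them. The log2 fold change was -0.05 and its 95% interval ran from -0.33 to 0.23, the narrowest of the 7 tested members. Bhlhe41 (ENSMUSG00000030256, chr6:145858243-145865558, minus strand) had 3 to 56 reads per library and was not tested. Its normalized counts were 19.6, 3.28, 8.01, 6.07 and 54.4 in Vil-Cre 1 to 5 and 5.88, 5.47, 8.71, 8.81 and 17.6 in Vil-Cre:NDI1 1 to 5, with Vil-Cre 5 far above the other 9 mice.

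Rora (ENSMUSG00000032238, chr9:68653786-69388246, plus strand), the activator at ROR elements, had 48.6, 41.6, 61.1, 32.4 and 100.04 normalized counts in Vil-Cre 1 to 5 and 55.9, 47.4, 36.8, 105 and 25.8 in Vil-Cre:NDI1 1 to 5, from 22 to 107 reads. The highest and the lowest mouse were both in the Vil-Cre:NDI1 group. The log2 fold change was -0.12, and its 95% interval of -0.95 to 0.72 held sizeable differences of either sign.

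**Figure D3:**
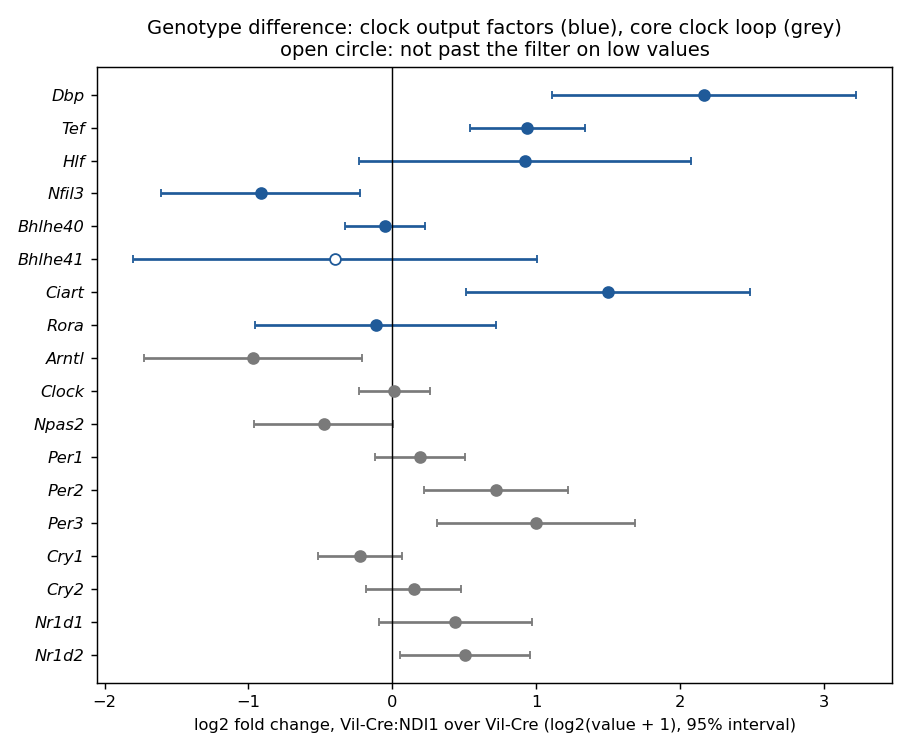
Log2 fold change of Vil-Cre:NDI1 against Vil-Cre (x axis, on the scale of log2 of the normalized count plus 1) with its 95% interval, for the 7 tested clock output genes and Bhlhe41 (open circle, from a fit without the filter) in blue and 10 genes of the core loop in grey. Dbp has the highest value at 2.17 and Arntl the lowest at -0.97, and no gene shown passed the threshold on the adjusted p in limma.

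Across the 7 tested members, 4 had a higher and 3 a lower mean log2 value in the Vil-Cre:NDI1 mice. None was called by limma over all 14301 genes, with adjusted p from 0.465 for Tef to 0.998. The 95% intervals of Dbp, Tef, Nfil3 and Ciart did not hold 0, whereas those of 4.24% of all tested genes did not, and nothing is read from this count because the genes were proposed with these differences known. The count tests on whole reads recovered from the table gave another picture for 2 members. DESeq2, the tool of the study's own analysis, called 31 of 16976 genes (0.183%), and 2 members, Tef (log2 fold change 0.90, adjusted p = 0.00142) and Dbp (2.10, adjusted p = 0.0461), were among them. In 8 libraries, without Vil-Cre 3 and 4, DESeq2 called 1.77% of genes and 1 member, with an adjusted p of 0.00386 for Tef and of 0.0976 for Dbp. The quasi-likelihood test of edgeR on the 10 libraries called 0.007% of genes and no member, with adjusted p of 0.604 for Tef and 0.840 for Dbp. On the 8 libraries neither edgeR (0.00674% of genes called) nor limma (0.00718%) called a member.

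Most of the tested members differed widely between mice of 1 genotype. The SD of the log2 values around the genotype means had a median of 0.68 over the 7 tested members and of 0.29 over all tested genes. It was 0.98 for Hlf, 0.90 for Dbp, 0.79 for Ciart, 0.68 for Rora and 0.57 for Nfil3. In the order of all tested genes, Hlf was above 94.9% of them, Dbp above 93.5%, Ciart above 91.0%, Rora above 86.9% and Nfil3 above 81.1%. Tef, with an SD of 0.33, was above 55.9%, and Bhlhe40, with 0.21, was above 32.5%. Ciart and Rora rest on few reads, and the SD of genes at this level includes counting error.

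To see which genes varied together between mice, Pearson's r was computed on the log2 values over the 10 mice. The mice share library and scaling across all genes, the genotypes are pooled, and the values are given as a description with no p, since the genes were proposed with these data in view. Dbp and Tef had an r of 0.94 (Spearman's rho 0.96), which was 0.82 with the genotype means removed and 0.89 without Vil-Cre 4 and 5, the mice farthest from the median of Dbp. Dbp and Nfil3 had an r of -0.88 (rho -0.89), which was -0.76 with the genotype means removed and -0.79 without those mice. Dbp and Ciart had 0.78 (rho 0.70), and 0.49 with the genotype means removed.

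Hlf did not follow its relatives in this way. Its r with Dbp was 0.45 (rho 0.37), 0.15 with the genotype means removed and 0.08 without Vil-Cre 5, and its r with Tef was 0.60, or 0.22 without Vil-Cre 5. Vil-Cre:NDI1 4, which had the second highest Dbp and Tef of the 10 mice, had the second lowest Hlf. Without this mouse the r of Hlf was 0.64 with Dbp and 0.79 with Tef. The r of Dbp was 0.19 with Bhlhe40, -0.17 with Bhlhe41 and -0.12 with Rora. Of the 28 pairs of members, 5 had an absolute r of at least 0.7 over the pooled genotypes. These were all among Dbp, Tef, Nfil3 and Ciart, whose genotype differences add to the pooled r. With the genotype means removed, only Dbp with Tef (0.82) and with Nfil3 (-0.76) stayed past 0.7. Dbp with Ciart was then 0.49, and Tef with Nfil3 and Nfil3 with Ciart were each -0.49. The share of all gene pairs past 0.7 was not computed.

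**Figure D4:**
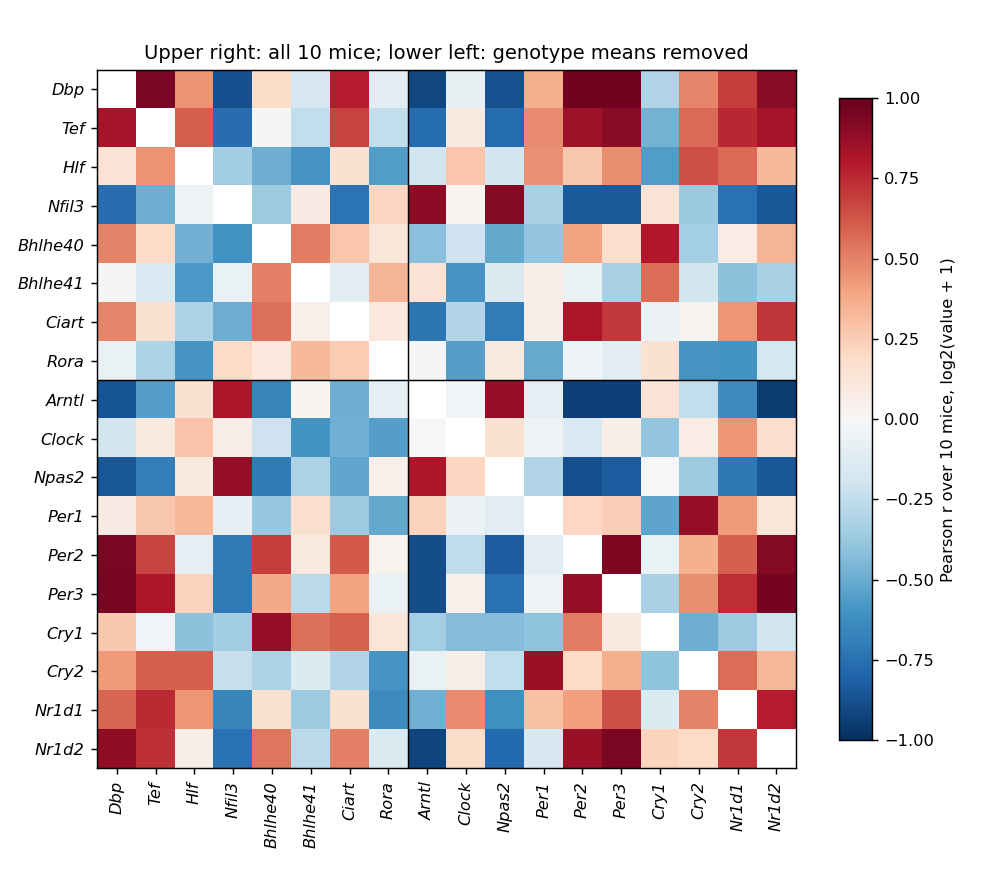
Pearson's r over the 10 mice between the log2 values of each pair of the 8 members and 10 core clock genes, from -1 to 1 on the colour scale, with all mice as they are in the upper right and genotype means removed in the lower left. In the upper right, Dbp, Tef, Ciart, Per2, Per3 and Nr1d2 have positive r with each other and negative r with Nfil3, Arntl and Npas2, whereas Bhlhe40, Bhlhe41 and Rora have r of 0.19, -0.17 and -0.12 with Dbp.

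The pattern of Dbp was also set against all other tested genes. Of 14300 genes the 5 with the highest r were Per3 (0.97), Per2 (0.96), the creatine transporter Slc6a8 (0.96), Tef (0.94) and Adss (0.93), an enzyme of AMP synthesis. The 5 with the lowest r were Efemp2 (-0.93), Nuak1 (-0.93), Cd1d1 (-0.92), Arntl (-0.91) and Ppm1k (-0.91). Nfil3 was 12th from the lowest end, and 14 genes had an r of at least 0.9 while 6 had an r of at most -0.9. Slc6a8, the most abundant of these, had 14935 ± 1568 normalized counts in the controls and 20204 ± 2843 in the Vil-Cre:NDI1 mice (SD, n = 5 each). For Tef the gene with the highest r was Dbp, and Per3, Plekhh1, Clrn3 and Txndc17 followed, each at 0.90.

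Genes of the core loop, 10 in number, were compared in the same fit. None was called, where limma called 0.00699% of all tested genes. Of the 10, 7 were above 0 and 3 below, and the median log2 fold change was 0.17 against 0.0051 over all tested mouse genes. Per3 (1.00) and Per2 (0.72), which encode repressors of the loop, had the highest values, and Arntl (-0.97) and Npas2 (-0.48), the activator pair, the lowest. Of the other PER and CRY genes, Per1 was at 0.19, Cry2 at 0.15 and Cry1 at -0.22, while Nr1d2 was at 0.51 and Nr1d1 at 0.44. Clock at 0.01 turned to -0.048 when the libraries were rescaled to equal totals. Of the core genes, Dbp had its highest r with Per3, Per2 and Nr1d2 (0.91) and its lowest with Arntl and Npas2 (-0.87), and Nfil3 had an r of 0.89 with Arntl and of 0.91 with Npas2. The r of Dbp was 0.69 with Nr1d1, 0.49 with Cry2, 0.37 with Per1, -0.07 with Clock and -0.30 with Cry1.

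Per3 is the gene whose values were most like those of Dbp, and its RefSeq window (GRCm38.p6, minus strand) is shown because it held 2 D-boxes TTATGTAA, the site of the PAR bZIP factors and NFIL3, in capitals, with first bases at -205 and -158 from the start. Of all windows 0.0213% held at least 2. Windows were found for 9 of the 10 core clock genes, and 1 of these genes held a D-box. The window of Per2 was not analysed here. The matches were not tested as binding sites.
Per3, chr4:151044616-151044915: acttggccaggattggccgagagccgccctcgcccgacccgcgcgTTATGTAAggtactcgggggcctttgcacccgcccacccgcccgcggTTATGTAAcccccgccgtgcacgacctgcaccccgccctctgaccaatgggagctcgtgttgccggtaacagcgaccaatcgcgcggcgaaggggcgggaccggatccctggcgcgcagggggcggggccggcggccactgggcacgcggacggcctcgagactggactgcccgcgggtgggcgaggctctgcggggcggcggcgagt

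Genes reported elsewhere as targets of PAR bZIP factors were then examined. Of 7 in the list, 6 were tested and Cyp2a5 was not. Cyp2a5 had 10, 0, 9, 0 and 0 reads in Vil-Cre 1 to 5 and 0 in every Vil-Cre:NDI1 mouse. None of the tested targets was called, where limma called 0.00699% of all tested genes. All 6 tested targets had a log2 fold change above 0, and the median was 0.42 against 0.0051 over all tested mouse genes. Only the 95% interval of Por (0.05 to 0.60) did not hold 0. The drug exporter gene Abcb1a (log2 fold change 0.71, 95% interval -0.11 to 1.53) had 7640 and 7002 normalized counts in Vil-Cre:NDI1 4 and 5, the mice with the highest Dbp, and 1417 to 3253 in the other 8. The peptide transporter gene Slc15a1 (0.34, 95% interval -0.07 to 0.75) likewise had its highest values, 19840 and 25494 normalized counts, in these mice. The other tested targets were Cyp2b10 at 0.51, Nr1i3 (CAR) at 0.50, Por at 0.32 and Alas1 at 0.05.

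Over the 10 mice, Abcb1a had an r of 0.81 with Dbp (rho 0.71) and of -0.82 with Nfil3 (rho -0.79). Slc15a1 had 0.82 (rho 0.75) and -0.84 (rho -0.76). For scale, Ciart, with an r of 0.78, stood 105th from the highest of 14300 genes by r with Dbp. With the genotype means removed the r with Dbp and with Nfil3 was 0.80 and -0.76 for Abcb1a, and 0.80 and -0.78 for Slc15a1. Por, the electron donor of cytochrome P450 enzymes, had 0.76 with Dbp and -0.82 with Nfil3, and 0.54 and -0.68 with the genotype means removed. Alas1, Nr1i3 and Cyp2b10 had an r of 0.32, 0.46 and 0.39 with Dbp, and of 0.47, 0.22 and 0.20 with the genotype means removed.

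Other lists were examined for signals known to act on clock genes or on NFIL3 targets, and none of their genes was called. Epithelial lipid genes under NFIL3 had a median log2 fold change of 0.07 over 4 genes, from -0.98 for Cyp2e1 to 0.42 for Cd36. These values are of whole jejunum, and the cell type they came from was not tested. Summed adipocyte markers ran from 10.1 to 1191 normalized counts in the controls and from 0.980 to 430 in the Vil-Cre:NDI1 mice. Glucocorticoid-responsive genes had a median of -0.12 over 6 genes, fasting genes of -0.07 over 6 and immediate early genes of -0.12 over 7.

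Markers of the cell types that whole jejunum can hold were summed in each mouse. No list had groups that did not overlap. Of 56 tested markers in 14 lists limma called none, with 4 at an unadjusted p under 0.05. Over all tested genes 4.24% were under that p. Enterocyte markers were all above 0 in log2 fold change, with a median of 0.26, and the 5 goblet cell markers were all below, with a median of -0.21. The log2 enterocyte sum had an r over the 10 mice of 0.88 with Hlf, 0.67 with Tef and 0.55 with Dbp. Without Vil-Cre 5, the mouse with the lowest sum, these were 0.66, 0.35 and 0.27, and the log2 fold changes of Tef and Dbp were 0.79 and 1.91. With the genotype means removed, the r of the enterocyte sum was 0.84 with Hlf, 0.54 with Tef and 0.30 with Dbp. Over the 10 mice, Nfil3 and Rora each had an r of -0.60 with the enterocyte sum. With the genotype means removed these were -0.41 and -0.63, and without Vil-Cre 5 they were -0.52 and -0.33. The goblet cell sum, 70697 to 90564 normalized counts in the controls and 53646 to 78356 in the Vil-Cre:NDI1 mice, had an r of -0.71 with Tef, -0.69 with Hlf, -0.61 with Dbp and 0.65 with Nfil3. With the genotype means removed, these were -0.37, -0.58, -0.17 and 0.38. Other sums also varied with members. With the genotype means removed, the r of Dbp was 0.63 with smooth muscle, -0.58 with macrophage, 0.57 with adipocyte and 0.50 with fibroblast markers. In the same way the smooth muscle sum had 0.82 with Ciart and -0.64 with Nfil3, and the crypt sum had 0.68 with Rora. The part of the content of any of these cell types in the values of these genes was not tested.

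Hepatocyte markers, 2 of 5 of them tested, summed to 15.2 to 1089 normalized counts in the controls and to 3.92 to 64.6 in the Vil-Cre:NDI1 mice, the highest sums being in controls. The liver also expresses PAR bZIP genes, and the part of liver RNA in these values was not tested. Alb had a log2 fold change of -3.14 and an r of -0.31 with Dbp over the 10 mice. The hepatocyte sum had an r of -0.29 with Dbp, -0.36 with Tef and -0.15 with Ciart. With the genotype means removed these turned sign, to 0.45, 0.39 and 0.56. T and innate lymphoid cell markers, a lineage that uses NFIL3 and RORA, summed to 713 to 1985 in the controls and 455 to 1896 in the Vil-Cre:NDI1 mice.

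**Figure D5:**
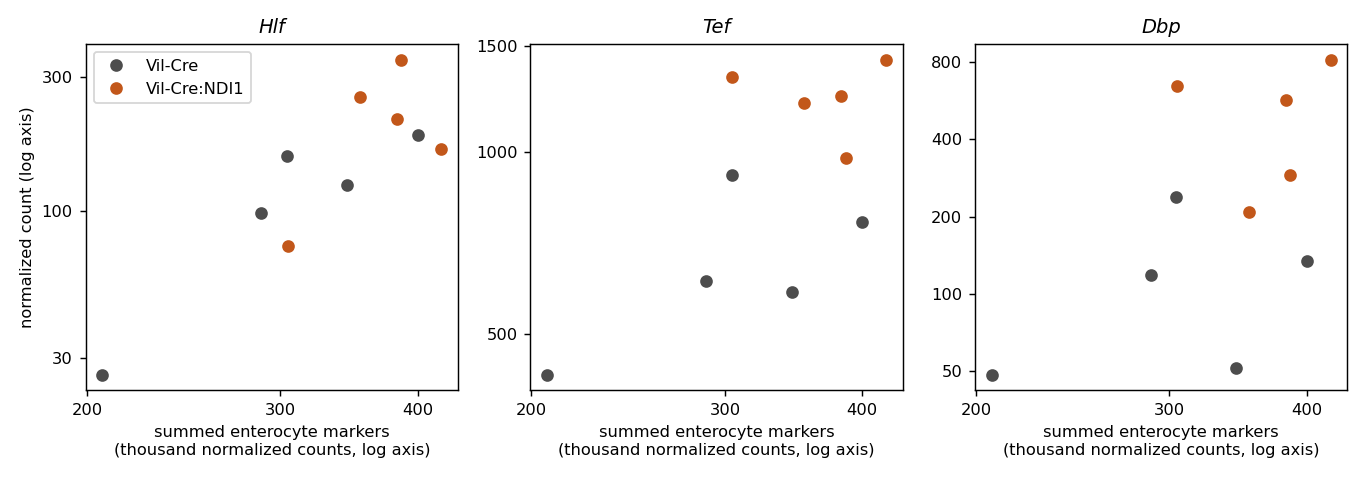
Summed normalized counts of the 8 enterocyte markers (x axis, in units of 1000, log scale) against the normalized counts of Hlf, Tef and Dbp (y axes, log scale) in each of the 10 mice, coloured by genotype. Vil-Cre 5 is lowest on both axes in all 3 panels, and the r over the 10 mice is 0.88 for Hlf, 0.67 for Tef and 0.55 for Dbp.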

How the data were processed

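RNA of whole jejunum from 10 mice was sequenced as single-end reads. The deposited table held gene counts that the authors had divided by DESeq2 size factors, a normalized signal per gene, after nf-core/rnaseq 3.12.0 (trimGalore! 0.6.7, STAR 2.6.1d, Salmon 1.10.1) on GRCm38 with NDI1 added; the annotation release and strand setting are not given in the sources used here. Size factors differed 1.29-fold. Genes at 10 or more in at least 5 mice were fitted as log2(value + 1) with limma 3.58.1 (trend) in R 4.3.3, both genotypes, no covariates, Benjamini-Hochberg adjusted, threshold 0.05. The added 1 makes fold changes of low genes smaller than a lesser added value does. The log2 fold change of Ciart was 1.50 with 1 added and 1.57 with 0.1 added. The count models gave less for Ciart, 1.32 by DESeq2 and 1.30 by edgeR. Differences on the scale of log2(value + 1) measure only the spread between these mice. All non-zero values were whole multiples of 1 read within 0.05 read, and the recovered reads, rounded, were tested with DESeq2 1.42.0 (local dispersion) and edgeR 4.0.16. In Vil-Cre 3 and 4 1 read was worth so nearly 1 that the step could not be checked independently; tests on the other 8 libraries were chosen after seeing the data. Scripts were tested on simulated data. Lengths and positions came from GENCODE M21, which held 45143 of the IDs, and promoters from RefSeq (7 of 8 members matched). Replicate numbers did not pair the mice: deviations of mice with the same number correlated at -0.116 to 0.136. Members and lists were chosen with earlier results of these data known. The genes named were the members, the fixed lists, the overlapping genes and the 5 genes most and least like Dbp, and the 5 most like Tef. Besides the 10 core clock genes given, 1 that was planned is not reported here. Protein likeness was not run.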

Additional observations from a re-analysis of the deposited data

Results flagged for a closer look

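Bhlhe41 in Vil-Cre:NDI1 5 had a normalized count of 17.6, whereas the other 4 Vil-Cre:NDI1 mice had 5.47 to 8.81. Its distance to the next mouse made up 0.724 of the group's whole range, above Dixon's critical value of 0.71 for 5 samples. Of 49 groups looked at, 1 had such a mouse and chance gives 2.45. The value rests on 15 reads, with an exact 95% Poisson interval of 8.40 to 24.7 reads for counting error alone.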

How the results depend on the processing

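Of the tested genes, 1 was past the threshold in limma, and 2 were with a minimum of 50, 31 by DESeq2, 276 by DESeq2 on the 8 libraries without Vil-Cre 3 and 4, and 1 to 3 when each mouse was left out (2 without Vil-Cre:NDI1 1 and 3 without Vil-Cre:NDI1 5). Of the members, 0 were called by limma and by edgeR, 2 by DESeq2 and 1 by DESeq2 on the 8 libraries, and 0 to 0 with each mouse left out. In limma 4 members were at an unadjusted p under 0.05, as were 4.24% of all tested genes. Nothing is read from this count, since the list was drawn up with these differences known. A replicate block gave 1 gene and 0 members; it changed no call, and the numbers do not pair the mice. The median SD of the 8 members was 0.73, or 0.58 with a pseudocount of 8 and 0.62 to 0.78 with each mouse left out. The r of Dbp with Tef was 0.94, or 0.96 as Spearman's rho, 0.82 with genotype means removed, 0.89 without Vil-Cre 4 and 5 and 0.93 to 0.98 with each mouse left out. Signs turned for Clock (-0.048 with equal totals, -0.0010 by DESeq2, -0.011 by edgeR, -0.053 to 0.11 with each mouse left out), Bhlhe40 (-0.14 to 0.016), Rora (-0.39 to 0.11) and the r of Dbp with Hlf (-0.088 without Vil-Cre 4 and 5). The cause was not tested. With each mouse left out, the log2 fold change was 1.91 to 2.48 for Dbp, 0.79 to 1.07 for Tef, 1.08 to 1.82 for Ciart, -1.13 to -0.64 for Nfil3 and 0.45 to 1.25 for Hlf. Over all alternative values for single genes and pairs, 426 kept direction and side of the threshold, 3 gained a call, 10 changed sign and 19 others moved by more than their error. At this depth, Ciart, Rora and Bhlhe41 rest on few reads per library in some or all mice. Protein likeness was not run.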
